A study of Mus musculus with 23 samples.

Results

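The genes described here encode the conjugation enzymes of the liver and the flavin-containing monooxygenases (Fmo). They comprise the UDP-glucuronosyltransferases of families 1, 2 and 3 (Ugt) and the cytosolic sulfotransferases (Sult). Every protein-coding gene was taken whose symbol began with Ugt1, Ugt2 or Ugt3 followed by a letter, began with Sult and a digit, or was Fmo and a single digit, and whose mean was at least 5 raw counts in the table of males or of females. The rule gave 36 genes of 26522 listed in either table, out of 45 protein-coding genes with such a name. They were 16 Ugt genes, 15 Sult genes and 5 Fmo genes. All 36 met the minimum in females, and 27 met it in males. Just inside were Ugt1a7c, with a mean of 5 counts in females, Sult3a2 with 14.4 and Sult2a6 with 14.8. Just outside were Sult4a1 with 4.17, Sult2b1 with 1.64 and Ugt1a10 with 1.64 counts in the table where each was higher.

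Glucuronosyltransferases move glucuronic acid from UDP-glucuronate to bilirubin, steroids, bile acids, phenols and drugs in the endoplasmic reticulum. Sulfotransferases move a sulfonate group from PAPS to phenols, steroids and bile alcohols in the cytosol, and both kinds of product leave the cell through membrane transporters. Flavin-containing monooxygenases oxidise nitrogen and sulfur atoms, a step usually counted with the oxidising phase of metabolism rather than with conjugation. In mouse liver many of these genes are known to differ between the sexes.

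Livers came from 23 mice that all carried the B100 background and had eaten a diet labelled WD over 16 weeks, and all were fed when killed. The 4 groups were 5 male and 6 female controls, labelled B100-Control, and 6 male and 6 female LKO mice, with Cpt1a ablated in the liver. Poly(A) RNA was sequenced from bulk tissue, so fewer cells of a type and less RNA per cell cannot be told apart. How the ablation was made, and the age of the animals, are not given in the sources used here. The labels name single animals, and p-values measure the spread between these samples.

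Total counts per library ran from 14224665 to 19626662. Cpt1a, the targeted gene, was 303 to 431 CPM (counts scaled to library size and composition) in control males and 42.2 to 96.8 in LKO males. It was 285 to 431 CPM in control females and 61.8 to 86.3 in LKO females. The summed level of 5 hepatocyte markers was 50268 to 92446 CPM, against 4.09 to 10.04 for 5 cholangiocyte markers, 156 to 371 for 5 stellate cell markers, 145 to 211 for 5 endothelial markers and 3.59 to 29.1 for 5 T and B cell markers. Of 5 markers of gut and kidney tubule, 3 were listed in each table, with a sum of 119.8 to 271 CPM. Control male replicate 4 stood apart from the other controls. It had the highest or the lowest value of its group in 22 of the 27 conjugation genes. The male-biased liver genes Elovl3 and Hsd3b5 were 570 and 356 CPM in that liver, against at most 144 and 96.3 in the other 4 control males, and the female-biased Cyp2a4 was 0.162 against at least 9.41. The summed level of 10 male-biased genes was 8072 CPM in that liver and at most 5558 in the other 4 control males. LKO males had 6131 to 8334 CPM, so on this sum replicate 4 lay inside their range and the other controls under it. Such a sum is weighted to its most abundant genes. Gene by gene, 5 of the 10 were higher and 5 lower in LKO than in control males. Their median log2 fold change was -0.02, and 0 were called by edgeR. In Elovl3 and Hsd3b5 replicate 4 lay above every LKO male, which had at most 193 and 177 CPM. Its female-biased sum lay under the LKO male range of 45.1 to 160.9 CPM.

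In LKO males, 0 of the 27 genes tested were called by the edgeR quasi-likelihood test at an adjusted p under 0.05, beside 0.00724 percent of all 13805 genes tested. At an unadjusted p under 0.05 there were 11 of 27, of which 10 had a positive log2 fold change, where all genes gave 12.5 percent in both directions, 5.23 percent in the positive and 7.22 percent in the negative one. The log2 fold change was above 0 in 20 of 27 genes, beside 52.1 percent of all genes, and its median was 0.21 beside 0.01 over all genes. DESeq2 called 1 of the 20 genes to which it gave an adjusted p, which was Ugt2b35, beside 1.27 percent of all genes given one, and limma-trend on FPKM called 0. The other 12 of the 32 genes of the set listed in males, Ugt1a6a among them, had no adjusted p from DESeq2, so it could not call them. Without control male replicate 4 the unadjusted count was 14 and the positive signs numbered 22, with 0 calls. Without LKO male replicate 4 the unadjusted count was 7.

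In LKO females, 0 of the 35 genes tested were called by edgeR, beside 1.42 percent of 13684 genes. At an unadjusted p under 0.05 there were 7, all with a negative log2 fold change, where all genes gave 15.6 percent in both directions and 7.33 percent in the negative one. The log2 fold change was above 0 in 15 of 35 genes, beside 51.1 percent of all genes, with a median of -0.10 beside 0.01. DESeq2 also called 0, beside 3.64 percent, and limma-trend called 0. Without LKO female replicate 3 the unadjusted count was 4.

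The difference between the sexes in the effect of LKO was tested as an interaction, females minus males, for 31 genes. By edgeR 0 were called, beside 0 of 14503 genes, and 4 had an unadjusted p under 0.05, all 4 below 0, beside 12.9 percent of all genes in both directions and 5.94 percent below 0. The interaction was below 0 in 26 of 31 genes, and in all 15 Ugt genes, while it was above 0 in 51.0 percent of all genes. DESeq2 called 2, Ugt1a6a and Ugt1a6b, beside 0.721 percent of the genes to which it gave an adjusted p, and limma-trend called 0. Without control male replicate 4 the unadjusted count was 11.

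**Figure D1:**
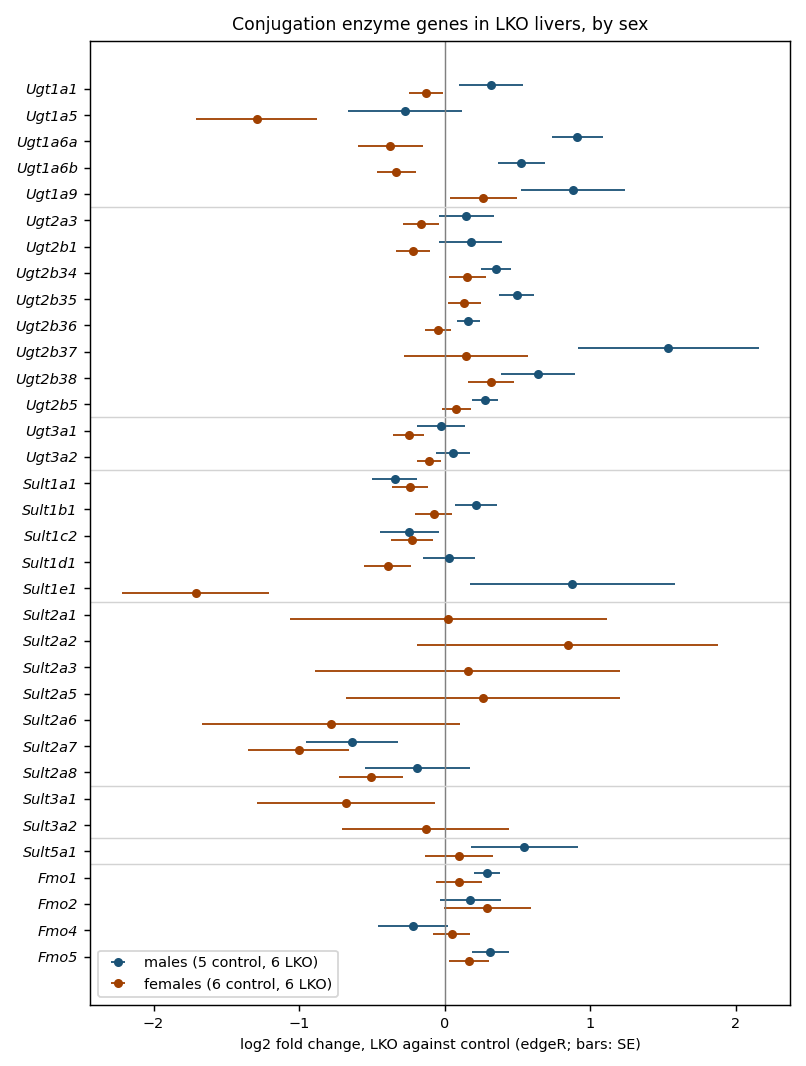
Each point is the log2 fold change of LKO against control livers (edgeR), with its standard error as a bar, for males and females separately; horizontal lines part the gene families. The 8 Ugt2 genes all lie above 0 in males, and the bars of Sult2a1 to Sult2a6 in females are the widest of any family.

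The Ugt1a genes share 1 locus on chromosome 1, on the plus strand. Those of the set are listed between positions 87998522 and 88147724 (the submitters' processing notes name mm39). Each enzyme has a first exon of its own, which sets the substrate, joined to 4 exons that all of them use. The junctions below show why their counts are uncertain. The 30 bases in lower case end the part that is the gene's own, and the 30 bases in capitals begin the shared exons, read from the GENCODE M21 transcripts (GRCm38), 5′ to 3′.
Ugt1a1: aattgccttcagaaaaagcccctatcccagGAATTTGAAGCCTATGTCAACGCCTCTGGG
Ugt1a5: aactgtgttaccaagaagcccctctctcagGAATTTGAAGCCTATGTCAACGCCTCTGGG
Ugt1a6a: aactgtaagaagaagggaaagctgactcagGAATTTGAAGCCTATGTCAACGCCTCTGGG
Ugt1a6b: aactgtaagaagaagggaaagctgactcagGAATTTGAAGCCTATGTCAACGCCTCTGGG
Ugt1a9: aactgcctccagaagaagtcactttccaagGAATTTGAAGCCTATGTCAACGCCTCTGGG
From that junction on, 1311 bases were identical in all 5 transcripts, 56.9 to 59.9 percent of their length. Ugt1a6a and Ugt1a6b were also the same over the 30 bases before it and 97.0 percent identical over the first coding exon, while Ugt1a1 and Ugt1a5 were 66.5 percent identical there. How reads in shared exons were counted is not given in the sources used here.

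Ugt1a6a, whose enzyme conjugates small planar phenols, had the lowest p of the set in LKO males. Control males had 2.20, 2.73, 2.78, 1.94 and 2.16 CPM, and LKO males 3.49 to 5.56 with a median of 4.35. All 6 LKO livers lay above every control. The means were 2.36 ± 0.37 (SD, n = 5) and 4.47 ± 0.80 CPM (SD, n = 6), a difference of 0.91 on the log2 scale (SE 0.17) with an edgeR adjusted p of 0.149. DESeq2 gave Ugt1a6a no adjusted p in males and so could not call it there. In females the gene was 5.52 to 11.8 CPM in controls (median 9.52) and 4.66 to 10.4 in LKO livers (median 6.49), and the groups overlapped. The female log2 fold change was -0.37 (SE 0.22; adjusted p 0.452 by edgeR). The interaction was -1.29 (SE 0.30; adjusted p 0.142 by edgeR), and DESeq2 called it at 0.0207, within a range of 0.0207 to 0.272 over the alternatives.

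Ugt1a6b, its near copy, had 21.3, 21.1, 23.2, 13.6 and 14.5 CPM in control males and 19.5 to 33.5 in LKO males, with a median of 27.03. The means of 18.7 ± 4.37 (SD, n = 5) and 27.1 ± 4.51 CPM (SD, n = 6) gave a log2 fold change of 0.53 (SE 0.16; adjusted p 0.274 by edgeR). In 5 of 6 LKO males the level exceeded the highest control. In females the log2 fold change was -0.33 (SE 0.13; adjusted p 0.249 by edgeR), from 17.2 ± 2.61 CPM in controls to 13.6 ± 2.78 in LKO livers (SD, n = 6 each), and 4 of 6 LKO livers lay under the lowest control. The interaction was -0.86 (SE 0.22; adjusted p 0.157 by edgeR). DESeq2 called that interaction at 0.0370, within a range of 0.0370 to 0.299.

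Ugt1a9, which conjugates phenols and fatty acids, was 8.78, 4.87, 8.51, 1.21 and 3.57 CPM in control males, and 6.11 to 12.2 in LKO males (median 10.2). The lowest control was replicate 4, and 5 of 6 LKO livers lay above every control. LKO against control males gave 0.88 on the log2 scale (SE 0.36; adjusted p 0.343 by edgeR), or 0.64 without that replicate. In females it was 0.27 (SE 0.23; adjusted p 0.641 by edgeR).

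Ugt1a5 ranked next to Sult1e1 by p in females. Control females had 23.5 to 88.2 CPM (median 34.3), and LKO females 3.85 to 31.5 (median 16.97). In 5 of 6 LKO livers the level was under the lowest control, and replicate 2 was the highest control by a wide margin. On the log2 scale the difference was -1.29 (SE 0.42; adjusted p 0.139 by edgeR), and -0.92 without that control. With the replicate number as a block the adjusted p was 0.0284, within a range of 0.0284 to 0.249. In males Ugt1a5 was 2.91 to 22.5 CPM in controls and 8.43 to 22.8 in LKO livers, with a log2 fold change of -0.27 (SE 0.39; adjusted p 0.835 by edgeR).

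Ugt1a1, the enzyme that conjugates bilirubin, was the most abundant Ugt1 gene per length, at 19.2 FPKM (fragments scaled to gene length and library size) in control males and 44.0 in control females. Its log2 fold changes were 0.32 (SE 0.22) in males and -0.13 (SE 0.12) in females, with edgeR adjusted p of 0.575 and 0.658. The summed level of all Ugt1 genes was 36.5 ± 12.1 FPKM in control males (SD, n = 5) and 46.2 ± 8.23 in LKO males (SD, n = 6). In females the sum was 77.3 ± 10.1 in controls and 61.2 ± 13.8 in LKO livers (SD, n = 6 each). The ranges of the groups overlapped in both sexes. Ugt1a7c was at 0 to 0.582 CPM over all 23 livers and was too low to be tested.

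**Figure D2:**
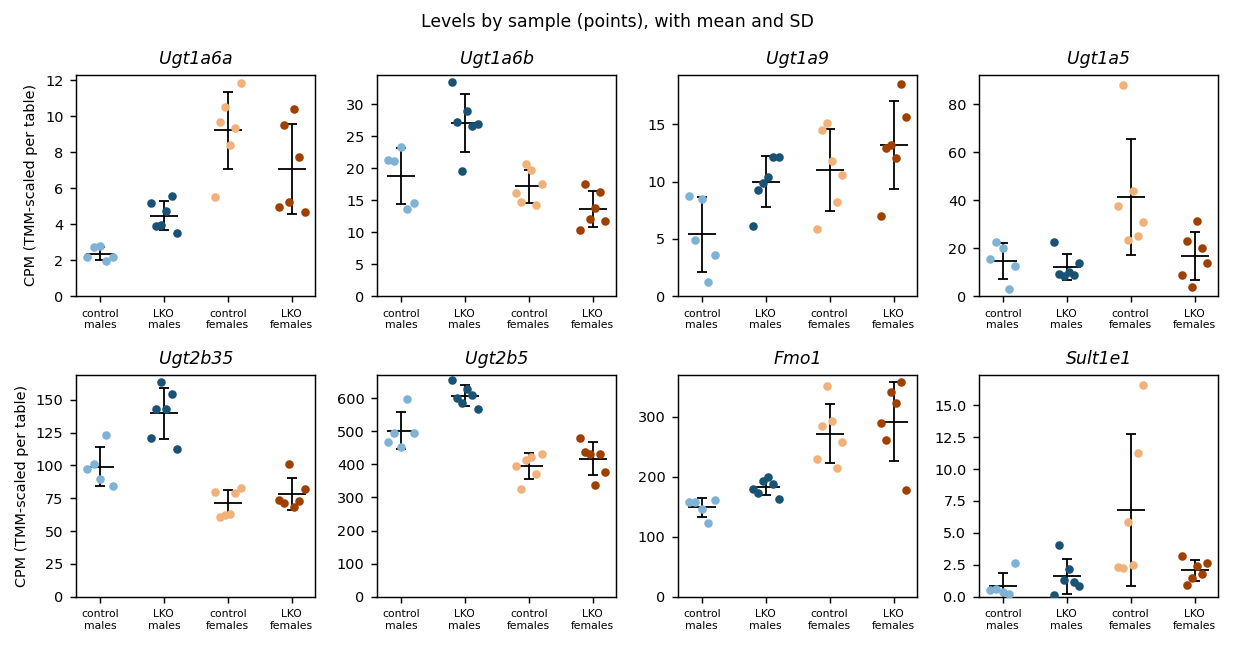
Points are CPM in single livers of the 4 groups, bars the mean and SD, for 8 genes of the set; each panel has its own linear axis from 0. Ugt1a6a in the 6 LKO males, at 3.49 to 5.56, lies above the control males, while the female groups overlap; Sult1e1 in control females spreads from 2.23 to 16.6.

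The start regions of 3 of these genes are printed because they sit in 1 locus while their values in males were 0.91, 0.88 and -0.27 on the log2 scale. They run from 250 bases before the start to 50 after it (RefSeq, GRCm38.p6, plus strand), and capitals mark GTTAAT on either strand, part of the site bound by the hepatocyte factor HNF1.
Ugt1a6a (chr1:88134559-88134858): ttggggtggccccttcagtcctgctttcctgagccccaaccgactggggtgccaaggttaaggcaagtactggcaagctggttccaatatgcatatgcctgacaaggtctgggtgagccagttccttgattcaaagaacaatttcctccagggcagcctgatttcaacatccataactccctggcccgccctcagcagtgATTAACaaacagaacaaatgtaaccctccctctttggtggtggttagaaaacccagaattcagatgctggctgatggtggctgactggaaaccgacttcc
Ugt1a9 (chr1:88070529-88070828): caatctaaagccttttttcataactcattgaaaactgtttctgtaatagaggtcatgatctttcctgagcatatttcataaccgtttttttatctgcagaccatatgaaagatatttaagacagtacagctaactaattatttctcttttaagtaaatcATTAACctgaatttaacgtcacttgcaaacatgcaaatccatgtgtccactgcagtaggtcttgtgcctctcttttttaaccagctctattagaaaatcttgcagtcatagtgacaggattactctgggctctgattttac
Ugt1a5 (chr1:88165762-88166061): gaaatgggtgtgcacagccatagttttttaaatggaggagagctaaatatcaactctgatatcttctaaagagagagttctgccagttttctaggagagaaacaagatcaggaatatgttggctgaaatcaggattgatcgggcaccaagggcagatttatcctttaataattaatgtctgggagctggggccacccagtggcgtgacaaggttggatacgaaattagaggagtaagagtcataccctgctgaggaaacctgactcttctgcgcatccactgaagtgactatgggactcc
The match begins at position -50 in Ugt1a6a and -91 in Ugt1a9, and the Ugt1a5 window has none. In the same locus the window of Ugt1a1, whose male value was 0.32, also held 1 match, and that of Ugt1a7c held 0. For 29 of the 36 genes a start region was found, 32 windows in all, and 11 of these (34.4 percent) held GTTAAT, beside 7.10 percent of 32851 mouse start regions. Of the other motifs searched on both strands, GCGTG, the core bound by the dioxin receptor, was in 9.38 percent of the 32 windows beside 32.4 percent of all. The STAT5 type motif TTCNNNGAA was in 9.38 percent beside 8.30 percent. Of the printed windows, Ugt1a6a also held TTCNNNGAA and Ugt1a5 also held GCGTG, which are not in capitals. These matches describe letters in the windows, and a link with the LKO values was not tested.

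The Ugt2 genes, most of which conjugate steroids and bile acids, held the most abundant glucuronosyltransferases. Ugt2b5 and Ugt2b36 led with 266 ± 32.5 and 207 ± 19.4 FPKM in control males (SD, n = 5) and 213 ± 22.2 and 197 ± 19.6 in control females (SD, n = 6). All 8 Ugt2 genes had a positive log2 fold change in LKO males, with a median of 0.32, and 5 of 8 did in LKO females, with a median of 0.11. Summed over the family, the level was 741 ± 132 FPKM in control males (SD, n = 5) and 871 ± 68.3 in LKO males (SD, n = 6), with overlap. The female sums were 636 ± 53.8 and 631 ± 62.6 FPKM (SD, n = 6 each). All 8 are on chromosome 5. The coding sequences of Ugt2b5, Ugt2b35, Ugt2b36, Ugt2b37 and Ugt2b38 were 86.1 to 97.0 percent identical to each other, closest between Ugt2b5 and Ugt2b38, so counting can have split reads between them. Ugt2b1 and Ugt2b34 were more distant, at 74.2 to 76.2 percent to the others and to each other, and Ugt2a3 was not compared.

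Ugt2b35 had 97.4, 101, 89.4, 123 and 84.6 CPM in control males and 113 to 164 in LKO males, with a median of 143. In 4 of 6 LKO males the level exceeded every control, and the control that overlapped was replicate 4. The means of 99.2 ± 14.9 (SD, n = 5) and 139.7 ± 19.4 CPM (SD, n = 6) gave a log2 fold change of 0.49 (SE 0.12; adjusted p 0.245 by edgeR). DESeq2 called it at an adjusted p of 0.0272, within a range of 0.0272 to 0.511, and the authors' deposited table gives 0.0263. In females the log2 fold change was 0.13 (SE 0.11; adjusted p 0.626 by edgeR), and the interaction was -0.36 (SE 0.17; adjusted p 0.374 by edgeR).

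Ugt2b5 was 469, 496, 452, 597 and 495 CPM in control males and 568 to 655 in LKO males (median 606). Only control replicate 4 reached the LKO range. The difference was 0.28 on the log2 scale (SE 0.09; adjusted p 0.274 by edgeR), and 0.35 without that replicate. Ugt2b34 was 222 ± 24.5 CPM in control males (SD, n = 5) and 283 ± 29.3 in LKO males (SD, n = 6), a difference of 0.35 on the log2 scale (SE 0.10; adjusted p 0.266 by edgeR), with 5 of 6 LKO livers above every control. Ugt2b38 had 3.83 to 14.7 CPM in control males and 11.2 to 17.9 in LKO males, and a log2 fold change of 0.64 (SE 0.25; adjusted p 0.335 by edgeR). Its female value was 0.32 (SE 0.16; adjusted p 0.346 by edgeR).

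Ugt2b37 had the largest positive log2 fold change of the set in males, 1.54 (SE 0.62; adjusted p 0.342 by edgeR). Control males had 1.13 to 2.81 CPM, and LKO males 1.29 to 17.05 with a median of 2.50. The value rested on LKO replicate 4, without which it was 0.56.

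The Ugt3 enzymes use sugar donors other than UDP-glucuronate. Ugt3a2 was the more abundant, at 81.0 and 83.4 FPKM in control males and females, with log2 fold changes of 0.06 (SE 0.12) in males and -0.10 (SE 0.08) in females. Ugt3a1 was 33.7 to 50.4 CPM in control females (median 39.7) and 27.4 to 38.3 in LKO females (median 35.2), and 3 of 6 LKO livers lay under the lowest control. Its female log2 fold change was -0.25 (SE 0.11; adjusted p 0.281 by edgeR), and in males it was -0.02 (SE 0.16).

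All 5 Sult1 genes had a negative log2 fold change in LKO females, with a median of -0.24, and 2 of 5 did in LKO males. Their summed level was 383 ± 68.6 FPKM in control females and 316 ± 42.7 in LKO females (SD, n = 6 each). In males it was 219 ± 33.7 in controls (SD, n = 5) and 181 ± 38.8 in LKO livers (SD, n = 6).

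Sult1e1, which sulfates estrogens, had the lowest p of the set in females. Control females had 2.23 to 16.6 CPM with a median of 4.16, and LKO females 0.880 to 3.18 with a median of 2.07. The 3 highest controls, replicates 3, 5 and 6, lay above every LKO liver, and the other 3 lay inside the LKO range. On the log2 scale LKO against control females gave -1.71 (SE 0.50; adjusted p 0.109 by edgeR), and -1.22 without control replicate 6. In males it was 0.502, 0.594, 0.362, 0.162 and 2.63 CPM in controls and 0.136 to 4.05 in LKO livers (median 1.21). That gave 0.88 (SE 0.70; adjusted p 0.653 by edgeR) on the log2 scale, and 1.94 without control replicate 6. The interaction was -2.59 (SE 0.91; adjusted p 0.264 by edgeR).

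Sult1a1, which sulfates phenols, was the most abundant member of the whole set per length in control females, at 304 ± 50.8 FPKM (SD, n = 6). In males it was 267, 276, 233, 305 and 340 CPM in controls and 174 to 325 in LKO livers (median 201), with 4 of 6 LKO livers under every control and replicate 1 as the highest. The log2 fold change was -0.34 (SE 0.16; adjusted p 0.391 by edgeR) in males and -0.24 (SE 0.12; adjusted p 0.372 by edgeR) in females. Sult1d1, which sulfates catecholamines, was 148 ± 37.3 CPM in control and 113 ± 21.3 in LKO females (SD, n = 6 each), a difference of -0.39 on the log2 scale (SE 0.16; adjusted p 0.251 by edgeR). In males that of Sult1d1 was 0.03 (SE 0.18).

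The Sult2a genes, which sulfate hydroxysteroids and bile acids, lie together on chromosome 7. A window of the coding sequence, bases 181 to 270 (178 to 267 in Sult2a7), shows how close the copies are. It is printed in lower case with capitals where a base differs from Sult2a1 (GENCODE M21, GRCm38), for genes whose levels moved together from animal to animal and for 2 that did not.
Sult2a1: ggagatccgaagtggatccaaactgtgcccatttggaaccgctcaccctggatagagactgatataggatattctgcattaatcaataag
Sult2a2: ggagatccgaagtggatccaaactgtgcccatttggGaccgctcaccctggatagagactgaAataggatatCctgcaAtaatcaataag
Sult2a3: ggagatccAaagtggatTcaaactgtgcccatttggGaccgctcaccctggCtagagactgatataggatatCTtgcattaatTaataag
Sult2a5: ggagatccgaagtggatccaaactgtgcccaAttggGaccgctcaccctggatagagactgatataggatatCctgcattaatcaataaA
Sult2a7: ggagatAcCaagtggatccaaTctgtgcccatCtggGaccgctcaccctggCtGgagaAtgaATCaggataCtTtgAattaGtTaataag
Sult2a8: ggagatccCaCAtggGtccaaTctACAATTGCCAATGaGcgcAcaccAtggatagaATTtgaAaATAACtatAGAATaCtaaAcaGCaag
Over the 90 bases Sult2a2 and Sult2a5 differed from Sult2a1 at 4, Sult2a3 at 7, Sult2a7 at 16 and Sult2a8 at 39. Over the aligned coding sequence Sult2a5 was 94.9 percent and Sult2a8 73.1 percent identical to Sult2a1. Reads of Sult2a1, Sult2a2, Sult2a3, Sult2a5 and Sult2a6 can therefore have been split between them or assigned to more than one.

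Among females, the 4 genes Sult2a1, Sult2a2, Sult2a3 and Sult2a5 varied more within a genotype than between genotypes. They were picked for description after that spread was seen in the values. Sult2a1 was 0.182, 0.626 and 0.133 CPM in control replicates 1, 4 and 5, and 27.6, 107 and 20.04 in replicates 2, 3 and 6. In LKO females it was 2.33 to 77.0 with a median of 9.24. The controls held both the lowest and the highest livers. Sult2a2 was 0.265 to 79.6 CPM in controls and 2.94 to 116 in LKO females, and Sult2a3 and Sult2a5 were lowest in the same 3 controls, at 0.242 and 0.303 CPM or less. Replicate 3 was the highest control and replicates 1 and 3 were the highest LKO livers for all 4 genes. The log2 fold changes of LKO against control were 0.02 (SE 1.09) for Sult2a1, 0.84 (SE 1.04) for Sult2a2, 0.16 (SE 1.05) for Sult2a3 and 0.26 (SE 0.94) for Sult2a5, so that even a change of 2-fold was not detectable with 6 animals a group. Leaving out a library moved the value of Sult2a1 from -0.67, without LKO replicate 3, to 1.43, without control replicate 3. Sult2a6 was 0 in control replicates 1, 4 and 5, where 3 counts is the limit that a count of 0 allows in each library, and 0.776 to 4.60 CPM in the other 3 controls.

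**Figure D3:**
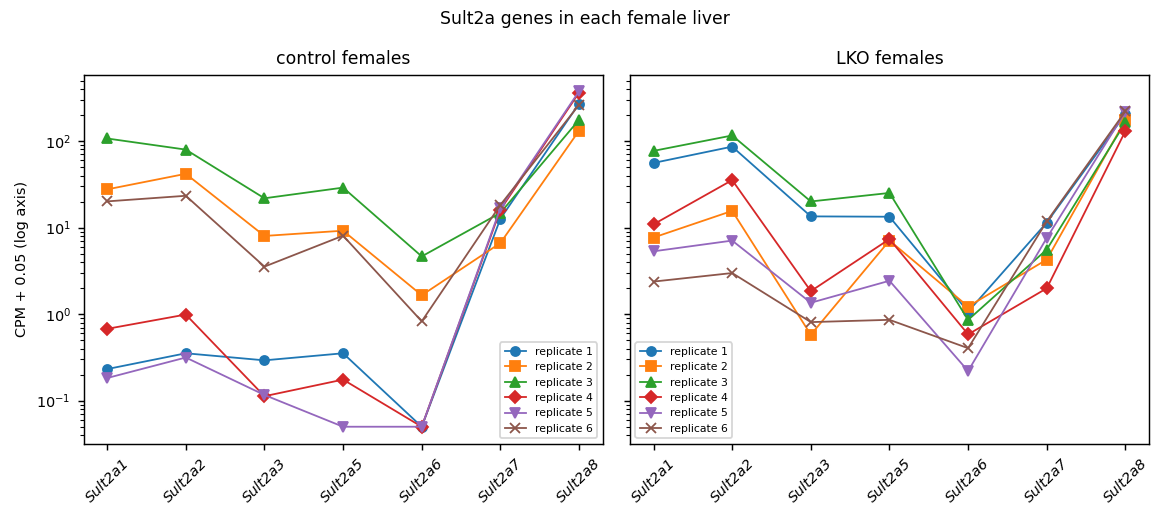
Each line joins the levels of 7 Sult2a genes in 1 female liver, as CPM + 0.05 on a log axis, with controls on the left and LKO livers on the right. Control replicates 1, 4 and 5 lie far under the others from Sult2a1 to Sult2a6 and not at Sult2a7 and Sult2a8; the lines of the LKO livers cross 1 another within a narrower band.

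Sult2a7 and Sult2a8 did not follow that order. Sult2a7 was 6.59 to 18.2 CPM in control females (median 15.4) and 1.94 to 11.7 in LKO females (median 6.54), with 3 of 6 LKO livers under the lowest control. Its log2 fold change was -1.004 (SE 0.35; adjusted p 0.165 by edgeR) in females and -0.64 (SE 0.31; adjusted p 0.435 by edgeR) in males. Sult2a8, an enzyme of bile acid sulfation, was 132 to 376 CPM in control females (median 266) and 131 to 221 in LKO females (median 190). In females that was a difference of -0.50 on the log2 scale (SE 0.22; adjusted p 0.291 by edgeR). In control males Sult2a8 was 252, 290, 176, 715 and 367 CPM, with replicate 4 highest, and in LKO males 162 to 548. The male log2 fold change of -0.19 (SE 0.36; adjusted p 0.884 by edgeR) turned to 0.22 without that replicate.

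Sult3a1, which sulfates amines, was 2.30 to 31.0 CPM in control females and 0.932 to 25.2 in LKO females, a difference of -0.68 on the log2 scale (SE 0.61; adjusted p 0.658 by edgeR). That value was -1.30 without LKO replicate 5 and -0.31 without control replicate 6. Its neighbour Sult3a2, 90.9 percent identical in coding sequence, was 0.121 to 1.89 CPM in control females and 0 to 1.30 in LKO females. Sult5a1 was 4.47 to 19.1 CPM in control males and 9.14 to 26.99 in LKO males, with a log2 fold change of 0.55 (SE 0.37; adjusted p 0.570 by edgeR).

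Among the monooxygenases, Fmo1 was the second gene whose male groups did not overlap. Together with Ugt1a6a it made 2 of 27 genes, beside 0.674 percent of all genes in the positive direction, while in females 0 of 35 did so, beside 1.59 percent in either direction. Control males had 157, 158, 145, 123 and 162 CPM, and LKO males 163 to 200.2 with a median of 183. The highest control, replicate 6, and the lowest LKO liver were nearly level. For Fmo1 the male log2 fold change was 0.29 (SE 0.09; adjusted p 0.274 by edgeR), and 0.23 without control replicate 4. In females it was 0.10 (SE 0.16), from 272 ± 49.1 to 292 ± 66.1 CPM (SD, n = 6 each).

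Fmo5, the most abundant monooxygenase, had 563 to 938 CPM in control males and 799 to 1047 in LKO males, with 5 of 6 LKO livers above every control. LKO against control gave 0.31 on the log2 scale (SE 0.13; adjusted p 0.347 by edgeR) in males and 0.17 (SE 0.14; adjusted p 0.613 by edgeR) in females.

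Marker sums of other cell types are given beside these results. In males the summed level of 6 Kupffer cell and macrophage markers was 199.7 to 374 CPM in controls and 307 to 394 in LKO livers, and that of 5 lipid-associated macrophage markers 61.1 to 237 and 56.8 to 272. In females the lipid-associated macrophage sum was 59.2 to 85.1 CPM in controls and 83.3 to 139 in LKO livers, and the Kupffer cell sum 330 to 547 and 366 to 526. The hepatocyte sum was 76180 to 92446 CPM in control females and 51472 to 83152 in LKO females, and 54337 to 78578 and 50268 to 69234 in males. The gut and kidney tubule sum was 119.8 to 195 CPM in control females (median 154) and 164 to 271 in LKO females (median 226), and 191 to 261 and 186 to 266 in control and LKO males. Nearly all of it was Fabp2, at 119.4 to 195 and 164 to 271 CPM in the female groups, while Vil1 was at most 0.714 CPM in any liver, and Slc34a1 in females and Umod in males at most 0.125 and 0.119. The part of these values in the results was not tested.

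The sexes were compared in the control livers, with CPM scaled over those 11 libraries. Of the 29 genes tested, 27 met the count minimum in both tables. Of these 27, 15 were called by edgeR, beside 18 percent of 13699 genes, with 11 higher and 4 lower in females, beside 8.8 and 9.2 percent. In 11 of the 27 the sexes did not overlap, beside 10.3 percent of all genes. The other 2 met the minimum only in females, so that their higher level there follows from how the genes were chosen, and with them 17 were called and 13 were higher. The sexes were deposited in separate tables, so sex and table cannot be told apart.

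Some genes were nearly absent from control males. Sult3a1, Sult2a1 and Sult2a3 entered the set through the females alone, so the direction of their difference was set by that choice and the values are a description. Sult3a1 had 38 to 480 counts per control female library and 2 counts in all in control males, a ratio of normalised sums of 582 (95 percent counting interval 160.8 to 4811). Such intervals cover counting error only. Sult2a1 summed to 2391 and 3 counts, a ratio of 676 (231 to 3279), although 3 control females were as low as 0.133 to 0.626 CPM, and the ratio was 270.0 without control female replicate 3. Sult2a3 had 0 counts in all control males and 521 in the females, at least 147-fold higher against a floor of 3 counts over the male group. Of those 521 counts, 322 came from replicate 3, without which the limit was 66.6-fold, and replicates 1, 4 and 5 had 4, 1 and 1. Sult2a1 and Sult2a3 did not pass the filter on low counts between the control sexes and have no test.

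Fmo2, Sult2a7, Sult1e1 and Ugt1a6a were also among the 13 called higher in females. Fmo2 was 6.94 ± 2.17 CPM in control males (SD, n = 5) and 58.9 ± 22.8 in control females (SD, n = 6), a difference of 3.07 on the log2 scale (SE 0.29; adjusted p 1.96e-05 by edgeR). Sult2a7 was 1.69 ± 0.63 and 14.1 ± 4.14 CPM, also a difference of 3.07 on the log2 scale (SE 0.29; adjusted p 2.24e-05 by edgeR). Sult1e1 was called at 2.97 (SE 0.72; adjusted p 0.0136 by edgeR) with overlap between the sexes, and leaving out control male replicate 6 gave 4.03, leaving out control female replicate 6 gave 2.48. Ugt1a6a was 2.29 ± 0.36 and 9.16 ± 2.15 CPM with no overlap, a difference of 1.99 on the log2 scale (SE 0.19; adjusted p 3.14e-05 by edgeR), while its copy Ugt1a6b, at 18.2 ± 4.19 and 17.04 ± 2.62 CPM, was not called. Among the others called higher, 7 were Fmo1, Fmo4, Sult1a1, Sult1c2, Sult1d1, Ugt1a1 and Ugt1a5, with log2 fold changes of 0.72 to 1.52.

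The 4 genes called lower in females were all Ugt2b genes. Ugt2b38 had a log2 fold change of -0.91 (SE 0.25; adjusted p 0.0257 by edgeR) and Ugt2b1 of -0.89 (SE 0.21; adjusted p 0.0108 by edgeR). Ugt2b1 was 295 ± 113 CPM in control males (SD, n = 5) and 159 ± 29.2 in control females (SD, n = 6), and 5 of 6 females lay under every male. Ugt2b35 was lower by a log2 fold change of -0.44 (SE 0.12; adjusted p 0.0219 by edgeR) and Ugt2b5 of -0.31 (SE 0.10; adjusted p 0.0445 by edgeR). With a replicate block Ugt2b38, Ugt2b35 and Ugt2b5 were not called (adjusted p 0.0593, 0.0773 and 0.139). The call of Ugt2b5 was also lost on leaving out any of 9 of the 11 libraries, with control male replicate 4 among them, and that of Ugt2b38 on leaving out control female replicate 1 or 5. Among the genes higher in females, Fmo4 was not called with the block (adjusted p 0.0649), and Ugt1a5 was lost with the block and on leaving out control male replicate 1 or 6 or control female replicate 2, with adjusted p of at most 0.0677.

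**Figure D4:**
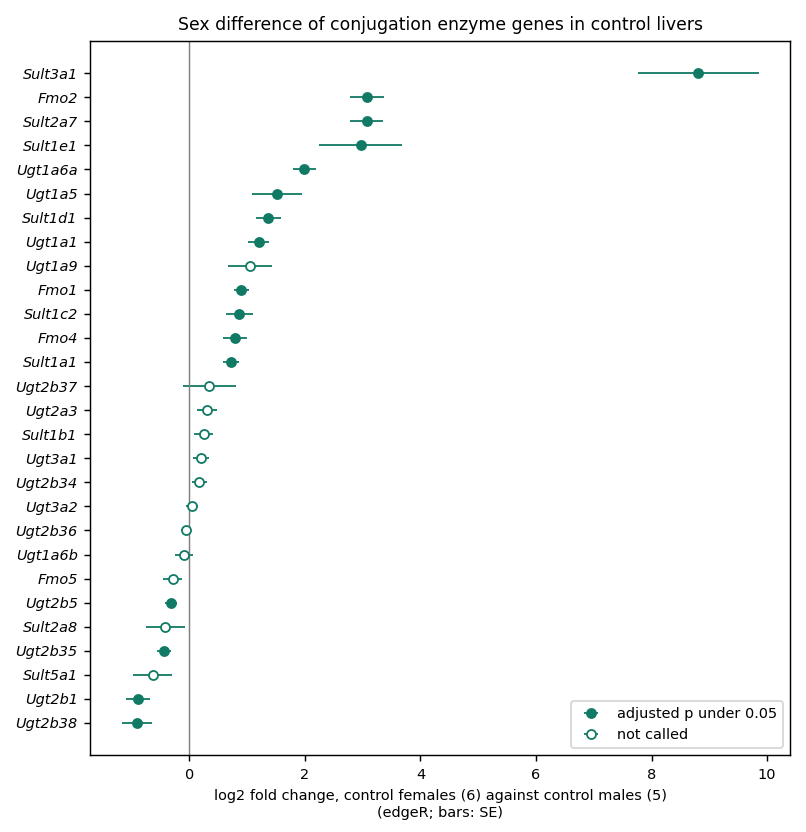
Points are the log2 fold change of control females against control males (edgeR) with the standard error as a bar, for 28 of the 29 genes tested; filled points have an adjusted p under 0.05. Sult3a1 lies far to the right of the rest, and the 4 filled points under 0 are Ugt2b genes.

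The genes that surround conjugation were taken from chosen lists. In LKO males 0 were called among 9 tested genes that supply UDP-glucuronate and PAPS, 4 of deconjugation, 12 regulators, 12 of other conjugation and 10 of conjugate transport. Their medians were 0.14, 0.08, 0.10, -0.04 and 0.13 on the log2 scale. Ugdh, which makes UDP-glucuronate, was 97.9 ± 28.3 CPM in control males (SD, n = 5) and 137.7 ± 15.3 in LKO males (SD, n = 6), a difference of 0.49 on the log2 scale (SE 0.17; adjusted p 0.284 by edgeR). Slc35d1, which carries UDP-glucuronate into the endoplasmic reticulum, gave 0.32 (SE 0.10, adjusted p 0.274) and Abcc2, which exports conjugates into bile, 0.32 (SE 0.10, adjusted p 0.279).

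In LKO females 2 of the 4 tested genes on the deconjugation list were called, both higher, beside 1.42 percent of all genes. Gusb, the lysosomal glucuronidase, had 31.0 ± 1.57 CPM in controls and 39.5 ± 4.27 in LKO livers (SD, n = 6 each), a difference of 0.35 on the log2 scale (SE 0.08; adjusted p 0.0420 by edgeR). Ephx1, which adds water to epoxides and removes no conjugate, had 313 ± 69.7 CPM in controls and 495 ± 100.1 in LKO livers (SD, n = 6 each), a difference of 0.66 on the log2 scale (SE 0.16; adjusted p 0.0498 by edgeR). Of the 2, Gusb alone removes conjugates. Both calls lay near the threshold: on leaving out each of the 12 libraries in turn, Gusb was called in the 2 fits without control replicate 3 or LKO replicate 1, and Ephx1 in the 2 without control replicate 3 or LKO replicate 6. Their edgeR adjusted p reached 0.110 and 0.123 in the other fits, and with a replicate block that of Gusb was 0.0628. In males Ephx1 gave 0.49 (SE 0.14, adjusted p 0.266). The lists of supply, regulators, other conjugation and transport had 0 calls of 9, 12, 12 and 10, with medians of 0.03, 0.02, 0.03 and -0.06. Slc22a7, an organic anion transporter, gave -0.98 (SE 0.32, adjusted p 0.139), and Abcg2, an exporter of sulfates, 0.35 (SE 0.11, adjusted p 0.129).

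Lists that mark sex and position in the lobule were set beside these. Of 12 female-biased liver genes tested in LKO females 0 were called, with a median of -0.35, and of 9 male-biased genes Hsd3b5 fell by 4.28 on the log2 scale (SE 0.72; adjusted p 0.0094 by edgeR). The pericentral Cyp1a2 fell by 0.82 on the log2 scale (SE 0.18; adjusted p 0.0420 by edgeR), and the periportal Hsd17b13 rose by 0.46 (SE 0.10; adjusted p 0.0384 by edgeR), as the single calls among 8 genes each. The call of Hsd3b5 held in all 12 fits that left out a library. That of Cyp1a2 was lost in 7 of them, without control replicates 1, 5 or 6 or LKO replicates 2, 3, 4 or 6, with an edgeR adjusted p of up to 0.106. That of Hsd17b13 was lost in 9, without control replicates 1, 4, 5 or 6 or any LKO replicate but 5, with up to 0.0987. In LKO males none of these 4 lists had a call by edgeR. Between the control sexes, 5 of 12 regulators were called higher in females and 0 lower, beside 8.8 and 9.2 percent of all genes, among them Nr1i3, the receptor CAR, at a log2 fold change of 1.30 (SE 0.13; adjusted p 3.78e-05 by edgeR). Of the deconjugation list 0 of 4 were higher and 3 lower, of supply 1 and 2 of 9, of other conjugation 1 and 4 of 12, and of transport 3 and 2 of 10. All 10 female-biased genes tested were called higher and all 10 male-biased genes lower in control females.

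The authors' deposited tables hold an adjusted p under 0.05 for 1 of these genes in males, Ugt2b35, and for 0 in females. For Ugt1a6a in males the authors' deposited table has a p-value of 3.99e-06 beside an adjusted p of exactly 1, a value it also gives for 12 more of the set. DESeq2 as run here gave no adjusted p to 12 of the 32 genes of the set listed in males. Benjamini-Hochberg adjustment over the 24434 genes listed in males cannot take so low a p-value to the authors' value. The 13 genes given it had the lowest mean counts of the set in males, up to 129 (Ugt1a9). The next was Ugt2b38 with 179. What the authors' value stands for is not given in the sources used here.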

How the data were processed

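Per the labels' protocols, mRNA was isolated with poly-T beads and made into dUTP libraries. The submitters' processing notes name mm39 and HISAT2 2.0.5. The counting tool and its use of strand are not given in the sources used here, so genes that overlap, lie antisense or are near-identical are uncertain. For each sex the authors deposited a table of raw read counts per gene and FPKM values per sample. The same deposited tables give the authors' own comparison of LKO with control, as log2 fold changes with raw and adjusted p-values. FPKM was used to compare levels between genes.

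From the counts, genes were kept by filterByExpr and scaled by TMM in edgeR 4.0.16 (R 4.3.3), and tested by quasi-likelihood; p-values were adjusted over every tested gene (Benjamini-Hochberg), and 0.05 was the limit for a call. Males and females were fitted separately. The interaction used all 23 samples, and the sexes were compared in the 11 controls, over genes in both tables. Fold changes are those of edgeR. Their standard error (SE) was worked back from the test, as the absolute log2 fold change over the square root of the quasi-likelihood F statistic. Total counts per library, 14224665 to 19626662, set the precision, and a count of 0 allows up to 3 counts. On simulated data, 72 percent of genes changed 2-fold were called in the male design, 79 percent in the female, 54 percent in the interaction and 77 percent between control sexes. Each simulation held 100 genes changed 2-fold and 100 changed 4-fold, and 177 genes were called in the male design and 145 in the interaction. The real data gave 1 and 0 calls there. A 2-fold change thus met a stricter limit in the real data, and these shares do not carry over to those comparisons. Alternatives were other scalings and filters, DESeq2 1.42.0, limma-trend (limma 3.58.1) on log2(FPKM + 1) or log2(FPKM + 0.1), 1 fit of all samples, a replicate block and leaving out each library.

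Values of 1 gene of the set are not reported here, though counts over the set include it. The genes, lists and tests were chosen with earlier results of these data known. Named are the 8 genes with the lowest p per sex, the 4 with the lowest interaction p, up to 6 called per direction between control sexes, the most abundant of each family, those next to the count minimum, the Ugt1a locus, and up to 2 per list and sex with the lowest p. Sult2a1, Sult2a2, Sult2a3, Sult2a5 and other called genes were added after their values were seen. Of the 36 genes, 29 matched a RefSeq start region and all 36 a GENCODE M21 transcript.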

Additional observations from a re-analysis of the deposited data

Results flagged for a closer look

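In 4 of 98 tests of a gene in 1 group (4.08 percent), the highest liver stood further from its neighbour than Dixon's limit for that group size allows. That limit flags about 1 in 20 groups of normally distributed values. The CPM were not transformed and the genes were measured in the same livers, so this rate need not hold here. Sult1e1 was 2.63 CPM in control male replicate 6, and the next control male had 0.594. Ugt2b37 was 17.05 CPM in LKO male replicate 4, and the next LKO male had 4.05. Sult2a6 was 4.60 CPM in control female replicate 3, and the next control female had 1.60. Ugt1a5 was 88.2 CPM in control female replicate 2, and the next control female had 43.7. The 4 values came from 4 different livers.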

How the results depend on the processing

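Calls among the genes of the set numbered 0 in LKO males and became 1 under the DESeq2 Wald test. In LKO females they numbered 0 and became 1 with the replicate block, and in the interaction 0 and 2 under DESeq2. All 3 counts stayed at 0 (0 to 0) when each library was left out. Between the control sexes the 17 calls ran from 15 to 18 on leaving out a library, and from 12 with the replicate block to 20. Of 946 alternative values for 44 named log2 fold changes, 922 kept their direction and side of the threshold, 17 lost and 4 gained a call, and 3 reversed. Sult2a8 in males ran from -0.41 to 0.22 on leaving out a library and was above 0 without control male replicate 4. Ugt3a2 in males ran from -0.0020 to 0.13 and was below 0 without control male replicate 3, and Sult5a1 in females ran from -0.016 to 0.29 and was below 0 without control female replicate 2. The cause was not tested. Same-numbered libraries deviated from their group means with correlations of -0.341 to 0.404 in males, 0.00693 to 0.177 in females and -0.158 to 0.110 between control sexes. The numbers were not taken as pairs, although all 6 correlations in females were above 0. A library correlated best with its own number in 1 of 5, 3 of 6 and 1 of 5 cases. With the replicate block the calls were 0 in males, 1 in females (Ugt1a5), 0 in the interaction and 12 between control sexes. Sult3a2 and Sult2a6, with medians under 1 CPM in both female groups, rest on at most 28 and 68 counts per library.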
